A study of Mus musculus with 7 samples.

Results

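Genes of brain blood vessels were followed in a ribosome pull-down from GABAergic cells of the mouse hippocampus. The set holds 36 genes listed by symbol as known markers of the vessel wall, and all 36 were found among the 39017 gene rows of the count table. Of these, 26 mark endothelial cells, 7 mark pericytes and 3 mark vascular smooth muscle cells. Pericytes and smooth muscle cells are together called mural cells, since they lie on the outside of the vessel.

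TRAP (translating ribosome affinity purification) captures ribosomes that carry an EGFP-tagged L10 protein, which cells with Cre recombinase make, along with whatever RNA those ribosomes hold. GAD2 cre and L10-EGFP were both present in the mice, according to the labels, and each TRAP sample pooled 2 hippocampi. The bound group had 3 libraries, titled GAD_ctrl1 to GAD_ctrl3, and held the captured RNA. The unbound group had 4 libraries, titled UBS7, UBS8, UBGS8 and UBGS9, here called unbound replicates 1 to 4. The alleles are given for the study and so were shared by bound and unbound libraries. The labels give no age, sex, drug or further genotype, do not explain UBS, UBGS or the GAD_ctrl prefix, and do not say whether libraries came from separate animals, so the p-values here cover library-to-library spread alone, which may be technical. A Cre line of this kind marks any cell in which Gad2 was ever active, and the unbound RNA is what the capture left behind, not an input sample.

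Endothelial cells of the brain line the capillaries and form the blood-brain barrier, with tight junctions between neighbouring cells, few vesicles and many transporters that carry glucose, hormones and lipids inward or pump drugs outward. Pericytes sit on the capillary wall inside the basement membrane and are recruited through the PDGF-B receptor, and smooth muscle cells ring the arterioles and set their width. None of these cells is a GABAergic neuron.

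Libraries held 38690380 to 51953811 counts. Gad2, the GABA-synthesising enzyme whose promoter drives Cre, stood at 755, 722 and 758 CPM (counts divided by the TMM-scaled library size, per the usual CPM definition) in bound libraries and at 190, 182, 112 and 114 CPM in unbound libraries, and Slc17a7, the vesicular glutamate transporter of excitatory neurons, at 14.3, 12.9 and 17.5 CPM against 525, 487, 523 and 488 CPM. Both genes went the way of the labels. Of 19563 genes that passed the filter on low counts, 31% were called higher and 30.7% lower in the bound libraries (edgeR adjusted p under 0.05), so a change in either direction was common. Astrocyte, oligodendrocyte and fibroblast markers were low in bound libraries too, with 11 of 12, 10 of 10 and 10 of 10 genes called lower. Microglia markers went the other way, with 12 of 12 called higher and a summed level of 334, 779 and 279 CPM in bound libraries, against 91.2 to 138 CPM in unbound libraries.

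Most vessel genes were scarce in every library. In unbound libraries 23 of the 36 averaged under 5 CPM and 5 of them, Cldn5, Tek, Tie1, Sox17 and Higd1b, under 1 CPM. Per kilobase of exon, 29 of the 36 lay below the median of the tested genes. The other 7 were Bsg, Rgs5, Ramp2, Vtn, Slc2a1, Acta2 and Pltp. Bsg led with 53.1 CPM per kb in unbound libraries, at percentile 96.2 of tested genes, followed by Rgs5 with 17.5 and Ramp2 with 11.9 CPM per kb. Cldn5, the most specific junction protein of brain endothelium, had 0.489 CPM per kb at percentile 19.8. Bsg and Slc2a1 are also expressed outside vessels, in neurons or glia.

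**Figure D1:**
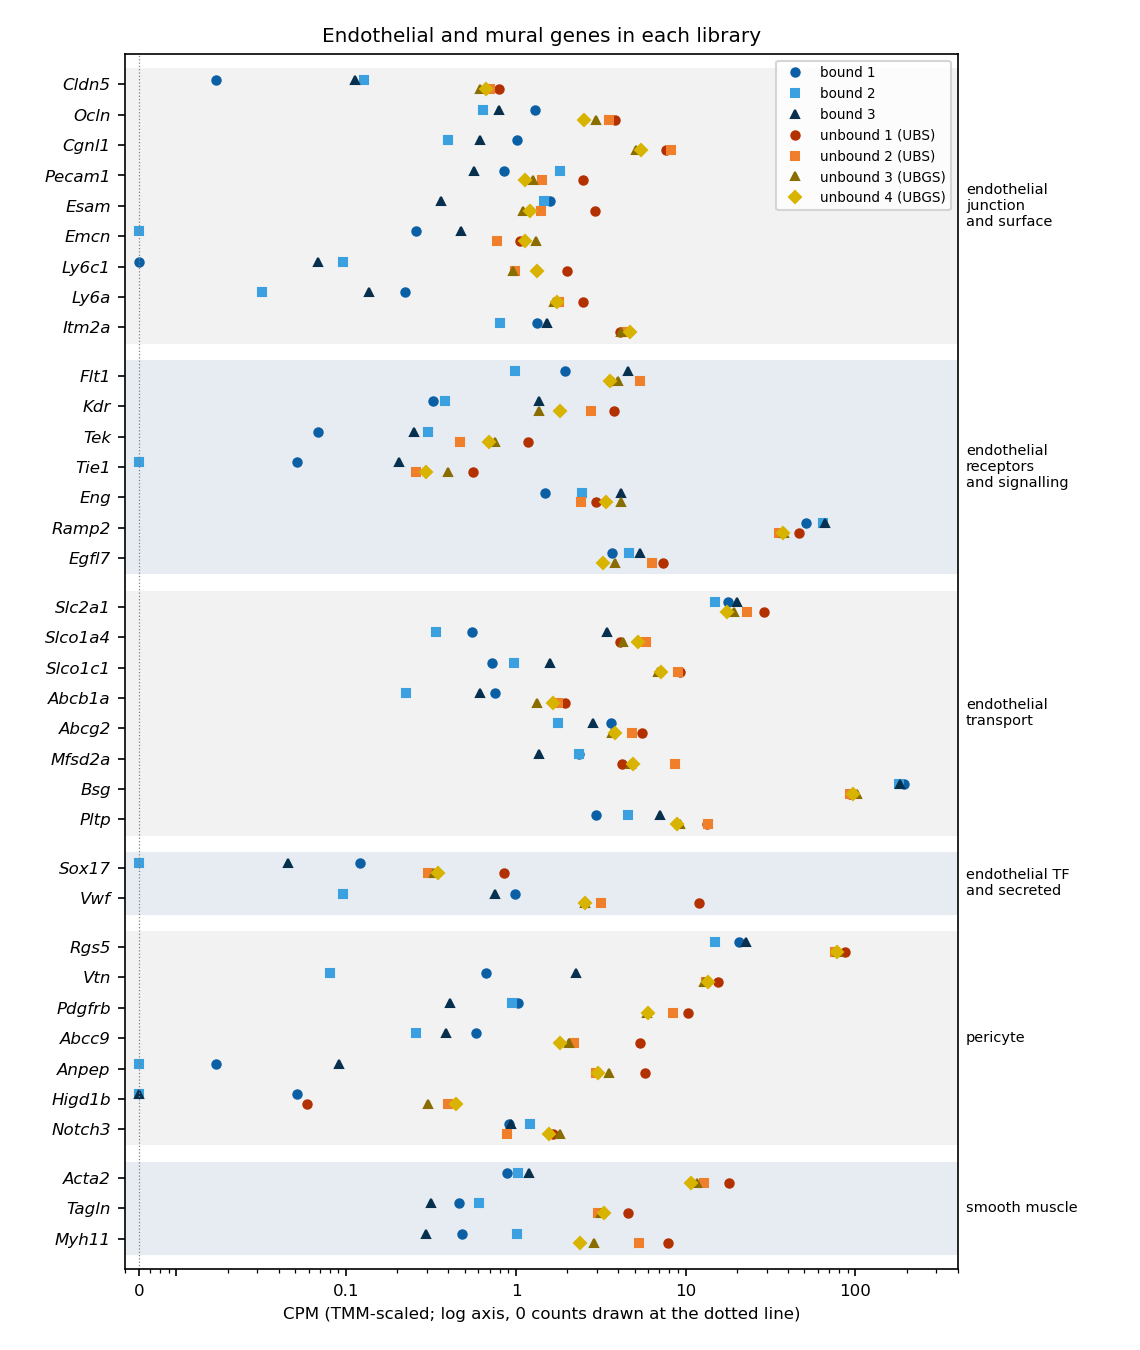
CPM of the 36 vessel genes in the 3 bound libraries (blue, upper row of each gene) and the 4 unbound libraries (red to yellow, lower row), on a log axis with libraries at 0 counts drawn on the dotted line. For 27 genes all bound libraries lie left of all unbound libraries, while Bsg and Ramp2 lie right of them.

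Vessel genes were mostly lower in the bound libraries. Of the 36 genes, 26 were called lower (72.2%, against 30.7% of all tested genes), 2 were called higher (Bsg and Ramp2, against 31% of all tested genes), and 8 did not pass the threshold. The median log2 fold change, bound minus unbound, was -1.96 over the 36 genes and -0.01 over all genes tested. In 27 genes every bound library lay below every unbound library, which held for 31.6% of all tested genes. A lower level here is a lower TMM-scaled CPM in captured RNA than in the RNA left behind. It measures neither vessel cell number nor RNA content per cell, and it is not a plain share of the library. Mitochondria-encoded genes held 28.5% to 32.9% of unbound counts and 0.0867% to 0.123% of bound counts. With library totals in place of TMM, 22 of the 36 and 3704 of 19563 genes were called lower. What set the level that remained in bound libraries was not tested.

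The filter bears on these counts. All 36 genes passed it, but 11 did so through the unbound libraries alone, namely Cldn5, Emcn, Ly6c1, Ly6a, Tek, Tie1, Sox17, Vwf, Vtn, Anpep and Higd1b, and those had to be lower. Among the other 25, which the bound libraries would also have passed, 16 were called lower, 2 higher and 7 neither. The share called lower among all genes that the bound libraries would pass was not computed. The 30.7% of all tested genes is not a matched share for these 25. Against the UBGS libraries alone 17 of the 36 were called lower (25.6% of all genes tested there), and against the UBS libraries alone 23 (24.1% of all genes).

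Mural genes had the larger median fall, and the difference from endothelial genes was not tested. Of the 10 mural genes 9 were called lower, with a median log2 fold change of -3.08. Of the 26 endothelial genes 17 were called lower, with a median of -1.80. Both medians include genes that passed the filter through the unbound libraries alone and so had to be lower. Over all tested genes 30.7% were called lower. Against the UBGS libraries alone 8 of the 26 endothelial genes were called lower, a share near the 25.6% of all genes, and 9 of the 10 mural genes. Summed over their members, mural genes reached 25.7, 20.1 and 28.5 CPM in bound libraries and 155, 125, 123 and 121 CPM in unbound libraries. The endothelial sum went the other way, with 288, 284 and 308 CPM in bound libraries and 266, 239, 227 and 220 CPM in unbound libraries. Rgs5 held most of the mural sum, and Bsg and Ramp2 together held most of the endothelial sum.

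**Figure D2:**
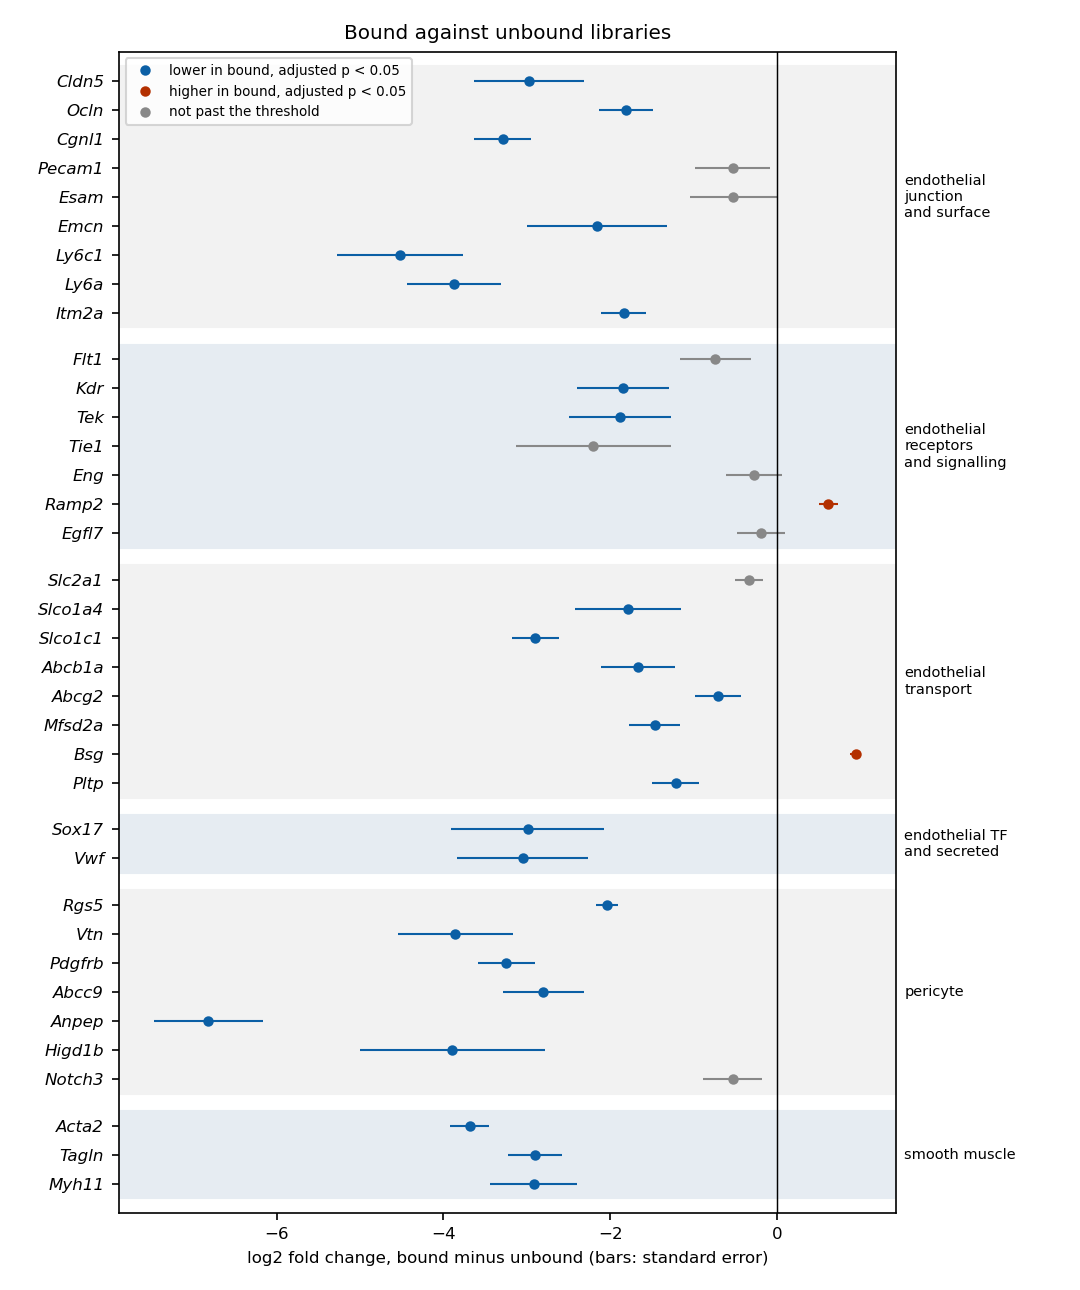
Log2 fold change (bound minus unbound) with its standard error for each of the 36 genes, grouped by class, from 3 bound and 4 unbound libraries. The fall reaches -6.82 for Anpep, and the 2 genes right of zero past the threshold are Ramp2 (0.62) and Bsg (0.94).

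Genes of the endothelial junction and cell surface were lower in 7 of 9 cases (against 30.7% of all tested genes), with a class median of -2.16. Of these, Cldn5, Emcn, Ly6c1 and Ly6a passed the filter through the unbound libraries alone and had to be lower, so the 30.7% is not a matched share. Cldn5 (claudin 5, which seals the tight junction; chr16:18776847-18778262, plus strand, GRCm38) stood at 0.0171, 0.128 and 0.113 CPM in bound libraries and 0.793, 0.701, 0.611 and 0.667 CPM in unbound libraries. The groups did not overlap, and the bound values rest on 1, 8 and 5 counts. Its log2 fold change was -2.98 (SE 0.66, edgeR adjusted p = 0.0023), a 7.88-fold lower level. Ocln (occludin, a second membrane protein of the tight junction) had 1.30, 0.640 and 0.794 CPM in bound libraries against 3.82, 3.53, 2.98 and 2.52 CPM in unbound libraries (log2 fold change -1.81, SE 0.32, edgeR adjusted p = 0.00052). Cgnl1 (paracingulin, a scaffold on the inner side of the junction) had 1.01, 0.400 and 0.612 CPM against 7.64, 8.20, 5.12 and 5.48 CPM, with a log2 fold change of -3.29 (SE 0.34, edgeR adjusted p = 9.1e-06). For Ocln and Cgnl1, too, every bound library lay below every unbound one.

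The surface antigens Ly6c1 and Ly6a and the membrane proteins Itm2a and Emcn were also lower. Ly6c1, a small lipid-anchored protein of the Ly6 family found on endothelial cells and leukocytes, had 0, 0.0960 and 0.0680 CPM in bound libraries and 2.00, 0.981, 0.963 and 1.33 CPM in unbound libraries. Over the summed counts (9 bound, 205 unbound) the bound level was 4.26% of the unbound level, with an exact 95% interval of 1.92% to 8.24% that covers counting error only. Ly6a (Sca-1, of the same family) stood at 0.222, 0.0320 and 0.136 CPM against 2.5, 1.80, 1.67 and 1.75 CPM, a log2 fold change of -3.87 (SE 0.56, edgeR adjusted p = 0.00012). Itm2a, a membrane protein abundant in brain endothelium, was lower by a log2 fold change of -1.84 (SE 0.27, edgeR adjusted p = 0.00012). Emcn (endomucin, a sialomucin of capillary and venous endothelium) had 0.257, 0 and 0.476 CPM in bound libraries against 1.06, 0.771, 1.31 and 1.14 CPM (log2 fold change -2.16, SE 0.84, edgeR adjusted p = 0.044), a call that held in 6 of 16 alternative settings and was lost without bound replicate 1 or without any 1 of the unbound libraries.

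Reads of Ly6c1 can be shared with its neighbour Ly6c2. The start of their coding sequences is shown because it is the 90-base aligned stretch with the most differences. No 50-base word is shared within it, so it shows where the copies can be told apart. Both genes lie on the minus strand of chromosome 15 (GRCm38), Ly6c1 at chr15:75044018-75048830 and Ly6c2 at chr15:75108158-75111970. The lines give coding bases 1 to 90 of a GENCODE M21 transcript of each, 5′ to 3′, with the 6 bases that differ in capitals.
Ly6c1: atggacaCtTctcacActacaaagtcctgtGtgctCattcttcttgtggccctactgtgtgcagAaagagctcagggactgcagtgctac
Ly6c2: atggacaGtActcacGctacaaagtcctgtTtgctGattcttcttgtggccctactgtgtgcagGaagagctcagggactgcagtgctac
Over 386 aligned coding bases the copies were 92.7% identical, and 32.8% of the 50-base words of Ly6c1 exons also occurred in another gene. Ly6c2 was itself nearly absent from bound libraries, at 0, 0.0160 and 0 CPM, against 0.470, 0.164, 0.282 and 0.395 CPM in unbound libraries. Both copies were thus lower in the bound libraries (Ly6c2: log2 fold change -5.24, edgeR adjusted p = 0.00098).

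Pecam1 and Esam, adhesion molecules of endothelial cell contacts, did not pass the threshold. Pecam1, which platelets and leukocytes also carry, had 0.856, 1.82 and 0.567 CPM in bound libraries and 2.5, 1.43, 1.27 and 1.14 CPM in unbound libraries, and the groups overlapped through bound replicate 2 (log2 fold change -0.53, SE 0.46, edgeR adjusted p = 0.33). Without that library, which also held the most microglia RNA, the log2 fold change was -1.13 (edgeR adjusted p = 0.048). The part of the microglia RNA in this value was not tested. Esam had 1.59, 1.47 and 0.363 CPM against 2.94, 1.4, 1.1 and 1.21 CPM (log2 fold change -0.52, SE 0.52, edgeR adjusted p = 0.4), with bound replicates 1 and 2 above 3 of the 4 unbound libraries.

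Endothelial receptors and signalling genes were the class with the smallest shift, with a median log2 fold change of -0.74. Of the 7 genes 2 were called lower, a share near the 30.7% of all tested genes. Of these, Tek passed the filter through the unbound libraries alone. Kdr (VEGF receptor 2, the main receptor for vessel growth) had 0.325, 0.384 and 1.36 CPM in bound libraries against 3.79, 2.78, 1.36 and 1.83 CPM in unbound libraries (log2 fold change -1.84, SE 0.55, edgeR adjusted p = 0.013). Bound replicate 3 reached the lowest unbound library to within rounding. The Kdr call was lost against the UBGS libraries alone (log2 fold change -1.21, edgeR adjusted p = 0.17). It was also lost with the exon length offset (edgeR adjusted p = 0.051). Tek (the angiopoietin receptor Tie2) had 0.0685, 0.304 and 0.249 CPM against 1.17, 0.467, 0.751 and 0.691 CPM (log2 fold change -1.88, SE 0.61, edgeR adjusted p = 0.02), and its call held in 10 of 16 alternative settings, not without bound replicate 1 or unbound replicate 1. Tie1, the partner of Tek, lay below every unbound library in each bound library but rested on 3, 0 and 9 bound counts and missed the threshold (log2 fold change -2.20, SE 0.93, edgeR adjusted p = 0.059).

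Flt1, Eng and Egfl7 overlapped between the groups. Flt1 (VEGF receptor 1, which binds VEGF with little signalling) stood at 1.95, 0.992 and 4.56 CPM in bound libraries and 3.58, 5.35, 3.99 and 3.58 CPM in unbound libraries (log2 fold change -0.74, SE 0.42, edgeR adjusted p = 0.15). Bound replicate 3 exceeded 3 of the 4 unbound libraries. Eng (endoglin, a co-receptor for TGF-beta and BMP ligands) had 1.49, 2.45 and 4.15 CPM against 2.97, 2.43, 4.18 and 3.38 CPM (log2 fold change -0.27, SE 0.34, edgeR adjusted p = 0.51). Egfl7, a secreted protein of endothelium, had 3.70, 4.64 and 5.4 CPM against 7.37, 6.35, 3.85 and 3.26 CPM (log2 fold change -0.19, SE 0.29, edgeR adjusted p = 0.6). The unbound libraries of Egfl7 split by title series, with both UBS libraries above every bound library and the lowest UBGS library below all bound ones.

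Ramp2 was called higher, and part of its exon sequence is shared with the gene beside it. Ramp2 encodes an accessory protein that turns the calcitonin receptor-like receptor (Calcrl) into a receptor for adrenomedullin. It stood at 51.1, 64.3 and 65.8 CPM in bound libraries and 46.4, 35.4, 38.2 and 37.5 CPM in unbound libraries (log2 fold change 0.62, SE 0.12, edgeR adjusted p = 0.00087). Exons of Ramp2 (chr11:101246028-101259546, plus strand, GRCm38) overlap those of Vps25, a subunit of an endosomal sorting complex on the same strand, over 33.4% of their length. Vps25 had 45.9, 54.1 and 55.3 CPM in bound libraries and 38.6, 28.2, 30.8 and 30.0 CPM in unbound libraries (log2 fold change 0.70, SE 0.12, edgeR adjusted p = 0.00039). In all 7 libraries the Ramp2 count was 1.11 to 1.25 times the Vps25 count, and how many reads the 2 genes share in these counts was not tested. At a 1.5-fold minimum the Ramp2 call was lost (edgeR adjusted p = 0.35). Its partner receptor Calcrl, named here for that link after its values were seen, was lower, with 1.01, 2.30 and 1.27 CPM in bound libraries against 9.84, 8.95, 5.87 and 6.35 CPM in unbound libraries (log2 fold change -2.33, SE 0.32, edgeR adjusted p = 7.5e-05).

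Genes of transport across the endothelium were lower in 6 of 8 cases (against 30.7% of all tested genes), with a class median of -1.34. They differed widely among themselves. Slco1c1 (the thyroid hormone carrier Oatp14, also made by astrocytes) fell the most, with 0.719, 0.976 and 1.59 CPM in bound libraries against 9.25, 9.07, 6.88 and 7.11 CPM in unbound libraries (log2 fold change -2.90, SE 0.28, edgeR adjusted p = 5.6e-06). Mfsd2a, which carries docosahexaenoic acid as a lysolipid into the brain, had 2.36, 2.35 and 1.36 CPM against 4.20, 8.6, 4.77 and 4.91 CPM (log2 fold change -1.47, SE 0.31, edgeR adjusted p = 0.0016). Abcb1a (P-glycoprotein, the main drug efflux pump of the barrier) had 0.753, 0.224 and 0.612 CPM against 1.94, 1.78, 1.34 and 1.65 CPM (log2 fold change -1.66, SE 0.44, edgeR adjusted p = 0.007). For all 3 the groups were apart. The Abcb1a call was lost against the UBGS libraries alone (edgeR adjusted p = 0.062). Abcb1a shares 22.5% of its 50-base exon words with other genes, and its copy Abcb1b, 88.1% identical in coding sequence, was lower as well (log2 fold change -1.95, SE 0.52, edgeR adjusted p = 0.0072).

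The calls for Slco1a4 and Abcg2 were the least firm of the class. Slco1a4, an organic anion carrier of brain endothelium, had 0.548, 0.336 and 3.45 CPM in bound libraries and 4.08, 5.82, 4.27 and 5.26 CPM in unbound libraries (log2 fold change -1.79, SE 0.64, edgeR adjusted p = 0.03). Bound replicate 3 alone stood near the unbound level. Without it the log2 fold change was -3.46 (edgeR adjusted p = 1.5e-05), and the call held in 4 of 16 alternative settings, not without bound replicate 1 or 2 or unbound replicate 2, 3 or 4. Abcg2, a second drug efflux pump, had 3.63, 1.76 and 2.86 CPM against 5.55, 4.86, 3.69 and 3.83 CPM (log2 fold change -0.70, SE 0.28, edgeR adjusted p = 0.044), a call that held in 7 of 16, not without bound replicate 2 or 3 or unbound replicate 1, 2 or 4. Pltp, the phospholipid transfer protein of lipoprotein metabolism, had 2.94, 4.59 and 7.10 CPM against 13.4, 13.5, 9.30 and 8.94 CPM (log2 fold change -1.21, SE 0.28, edgeR adjusted p = 0.003). Against the UBGS libraries alone its call was lost (log2 fold change -0.89, edgeR adjusted p = 0.058). Its exons overlap over 19.3% of their length those of Ctsa on the opposite strand, which was higher (log2 fold change 0.64, SE 0.09, edgeR adjusted p = 6.5e-05), and the strand setting of the counting is not given in the sources used here.

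Bsg and Slc2a1, the transport genes with the highest CPM per kilobase in unbound libraries, were not called lower. Bsg (basigin, a membrane chaperone of lactate carriers that marks brain endothelium; chr10:79704491-79711969, plus strand, GRCm38) had 193, 180.5 and 183 CPM in bound libraries and 93.2, 92.9, 102 and 97.1 CPM in unbound libraries. The groups were far apart, and the log2 fold change was 0.94 (SE 0.07, edgeR adjusted p = 3.9e-07), the same call in all 16 alternative settings. Slc2a1 (the glucose carrier GLUT1, the classic carrier of the barrier) had 17.8, 14.8 and 20.2 CPM against 28.9, 23.1, 19.3 and 17.6 CPM, with overlapping groups (log2 fold change -0.33, SE 0.17, edgeR adjusted p = 0.11). Against the UBS libraries alone its log2 fold change was -0.56 (edgeR adjusted p = 0.022).

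Sox17 and Vwf, a transcription factor of arterial endothelium and the secreted clotting glycoprotein von Willebrand factor, were both lower (against 30.7% of all tested genes). Both passed the filter through the unbound libraries alone and so had to be lower. Vwf had 0.993, 0.0960 and 0.748 CPM in bound libraries and 12, 3.18, 2.54 and 2.54 CPM in unbound libraries (log2 fold change -3.05, SE 0.79, edgeR adjusted p = 0.0066). Unbound replicate 1 was far above the other 3, and without it the log2 fold change was -2.16 (edgeR adjusted p = 0.014). Sox17 showed the same library on top, with 0.120, 0 and 0.0453 CPM against 0.852, 0.304, 0.329 and 0.346 CPM (log2 fold change -2.99, SE 0.92, edgeR adjusted p = 0.015). From 9 bound and 70 unbound counts its bound level was 12.5% of the unbound level (exact 95% interval 5.47% to 25.0%). Against the UBGS libraries alone the Vwf call was lost (log2 fold change -2.04, edgeR adjusted p = 0.056). The Sox17 call was lost there too (edgeR adjusted p = 0.09).

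Pericyte genes were lower in 6 of 7 cases (against 30.7% of all tested genes), with a class median of -3.25. Of these, Vtn, Anpep and Higd1b passed the filter through the unbound libraries alone and had to be lower, so the 30.7% is not a matched share. Rgs5, a regulator of G-protein signalling and the best known pericyte marker (chr1:169655501-169695813, plus strand, GRCm38), was the mural gene with the highest CPM per kilobase, and stood at 20.6, 14.9 and 22.7 CPM in bound libraries and 86.4, 75.9, 78.7 and 77.7 CPM in unbound libraries. Its spread was small in both groups, and 24.4% of the unbound level remained in bound libraries (log2 fold change -2.04, SE 0.13, edgeR adjusted p = 2.8e-07). That was the smallest fall among the pericyte genes called lower. Pdgfrb (the PDGF-B receptor by which endothelium recruits pericytes) had 1.03, 0.944 and 0.408 CPM against 10.4, 8.39, 5.92 and 6.0 CPM (log2 fold change -3.25, SE 0.34, edgeR adjusted p = 1.1e-05).

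Vtn and Anpep were lower by more. Vtn (vitronectin, a matrix protein made by brain pericytes) stood at 0.667, 0.0800 and 2.24 CPM in bound libraries and 15.5, 13.2, 12.8 and 13.6 CPM in unbound libraries (log2 fold change -3.86, SE 0.69, edgeR adjusted p = 0.00093). The unbound libraries agreed closely, whereas the bound ones ranged from 5 to 99 counts with replicate 3 highest. Anpep (aminopeptidase N, the pericyte antigen CD13) had 0.0171, 0 and 0.0907 CPM against 5.73, 2.97, 3.52 and 3.06 CPM (log2 fold change -6.82, SE 0.65, edgeR adjusted p = 4.8e-06). With 5 bound and 596 unbound counts, its bound level was 0.813% of the unbound level (exact 95% interval 0.263% to 1.91%), the lowest of all 36 genes.

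Abcc9, Higd1b and Notch3 completed the pericyte class. Abcc9 (the SUR2 subunit of a potassium channel gated by ATP) had 0.582, 0.256 and 0.385 CPM in bound libraries and 5.37, 2.20, 2.07 and 1.83 CPM in unbound libraries (log2 fold change -2.80, SE 0.49, edgeR adjusted p = 0.00049). Higd1b, a mitochondrial protein found in pericytes, had 3, 0 and 0 counts in bound libraries, and its unbound replicate 1 with 2 counts was nearly as low at 0.0587 CPM. Over the summed counts the bound level was 5.82% of the unbound level (exact 95% interval 1.16% to 18%; log2 fold change -3.89, SE 1.11, edgeR adjusted p = 0.01). Notch3, the Notch receptor of mural cells, had 0.907, 1.22 and 0.930 CPM against 1.64, 0.888, 1.81 and 1.56 CPM and did not pass (log2 fold change -0.53, SE 0.35, edgeR adjusted p = 0.21). It was the only mural gene whose groups overlapped.

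All 3 smooth muscle genes were called lower, against 30.7% of all tested genes. Acta2 (smooth muscle actin; chr19:34241090-34255590, minus strand, GRCm38) had 0.890, 1.02 and 1.20 CPM in bound libraries and 18, 12.9, 11.7 and 10.8 CPM in unbound libraries (log2 fold change -3.68, SE 0.23, edgeR adjusted p = 2.1e-07). Myh11 (smooth muscle myosin heavy chain) had 0.479, 1.01 and 0.295 CPM against 7.84, 5.28, 2.86 and 2.39 CPM (log2 fold change -2.92, SE 0.52, edgeR adjusted p = 0.00056). Tagln (transgelin, an actin-bundling protein) had 0.462, 0.608 and 0.317 CPM against 4.58, 3.06, 3.17 and 3.28 CPM (log2 fold change -2.91, SE 0.32, edgeR adjusted p = 1.6e-05). In each gene the groups were well apart. Exons of Tagln overlap genes on the opposite strand, among them Pcsk7, over 67.9% of their length. Pcsk7 itself did not pass (log2 fold change 0.30, SE 0.50, edgeR adjusted p = 0.63). Acta1, the skeletal actin with 85.4% identical coding sequence, shared no coding 50-base word with Acta2 and went the other way, with 8.98, 7.28 and 7.46 CPM in bound libraries against 2.41, 4.04, 4.74 and 4.17 CPM in unbound libraries (log2 fold change 1.04, SE 0.22, edgeR adjusted p = 0.002).

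The bound libraries differed in how much vessel RNA they held. The median gene stood at 22.1%, 17.8% and 26.6% of its unbound mean in bound replicates 1, 2 and 3. Replicate 3 was the highest bound library for 16 of the 36 genes, among them Slco1a4, Kdr, Flt1, Eng, Vtn and Tie1. It was the only lowest one for 6, namely Pecam1, Esam, Mfsd2a, Pdgfrb, Tagln and Myh11. Replicate 2 was the lowest for 19, counting Higd1b, where replicate 3 also had 0 counts. In replicates 1, 2 and 3 the median endothelial gene stood at 28.5%, 19.2% and 36.2%, and the median mural gene at 13.3%, 10.6% and 9.01%. Haemoglobin RNA was highest in replicate 3, with a sum over 4 globin genes of 1.08, 0.352 and 44.6 CPM in bound replicates 1, 2 and 3. The sum was 321, 341, 254 and 242 CPM in unbound libraries. Among the 5 blood genes 4 were called lower. Alas2, the haem synthesis enzyme of red cells, was lowest in replicate 3, with 0.685, 0.528 and 0.0453 CPM in bound replicates 1, 2 and 3 against 3.70, 3.27, 2.82 and 2.64 CPM in unbound libraries. The part of blood RNA in these values was not tested. Without replicate 3 the log2 fold change was -1.49 for Flt1 (edgeR adjusted p = 0.0037), -3.77 for Tie1 (edgeR adjusted p = 0.012) and -5.22 for Vtn (edgeR adjusted p = 1.9e-05), and 27 genes were called lower in place of 26. Of 6 perivascular macrophage genes tested 2 were called lower, a share near the 30.7% of all tested genes. Their list summed to 2.28, 6.07 and 6.62 CPM in bound libraries against 5.59 to 7.55 CPM in unbound libraries.

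**Figure D3:**
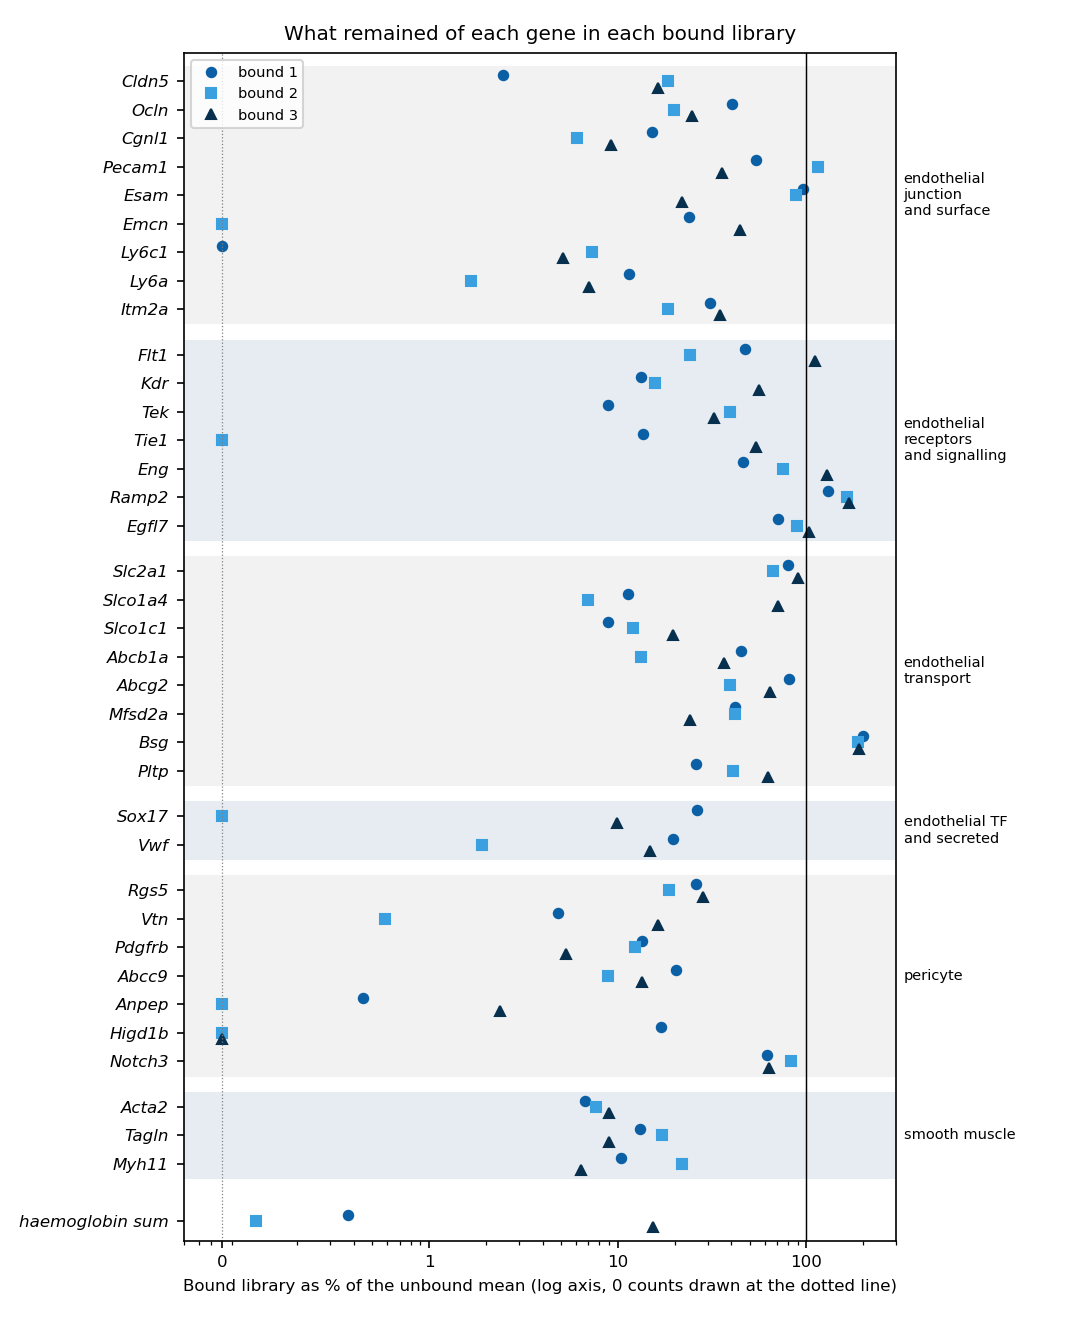
Level of each gene in bound replicates 1 to 3 as a percentage of its mean over the 4 unbound libraries, on a log axis with 0 counts on the dotted line. The last row gives the sum of 4 haemoglobin genes, where replicate 3 stands far right of the others as it does for Flt1, Slco1a4 and Vtn. For Pdgfrb, Tagln and Myh11 replicate 3 lies left of the others.

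The 4 unbound libraries also differed, mainly through replicate 1. It was the highest unbound library for 25 of the 36 genes, and its median level was 131% of the mean of the other 3. Vwf (12 CPM, against 2.54 to 3.18 in the others), Abcc9 (5.37, against 1.83 to 2.20), Sox17 (0.852, against 0.304 to 0.346) and Esam (2.94, against 1.1 to 1.4) stood out the most. Higd1b was lowest in the same library. In the UBS libraries 30 of 36 genes were higher than in the UBGS libraries, with a median log2 difference, UBS minus UBGS, of 0.37 against 0.00 over all genes tested. None of the 36 passed the threshold in edgeR (11 at an unadjusted p under 0.05), where 0.229% of all 19256 genes tested were called. DESeq2 called 2 of them, Egfl7 and Myh11. Egfl7 averaged 6.86 CPM in UBS and 3.55 CPM in UBGS libraries (log2 difference 0.94, SE 0.17, edgeR adjusted p = 0.13), and Myh11 6.56 and 2.63 CPM (log2 difference 1.31, SE 0.24, edgeR adjusted p = 0.13). Unbound replicates 3 and 4, the UBGS pair, were much closer to each other than any other pair of a group, at 5.57 times the counting variance against 25.0 to 46.3, yet beyond sampling noise, and were kept as 2 libraries. Leaving out 1 library left a lone library on 1 side, whose spread was then taken from the other pair. With the close UBGS pair setting the spread, 12 of the 36 passed without unbound replicate 1 (23.5% of all genes) and 21 without replicate 2 (36.9% of all genes), and with the UBS pair setting it 0 passed.

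**Figure D4:**
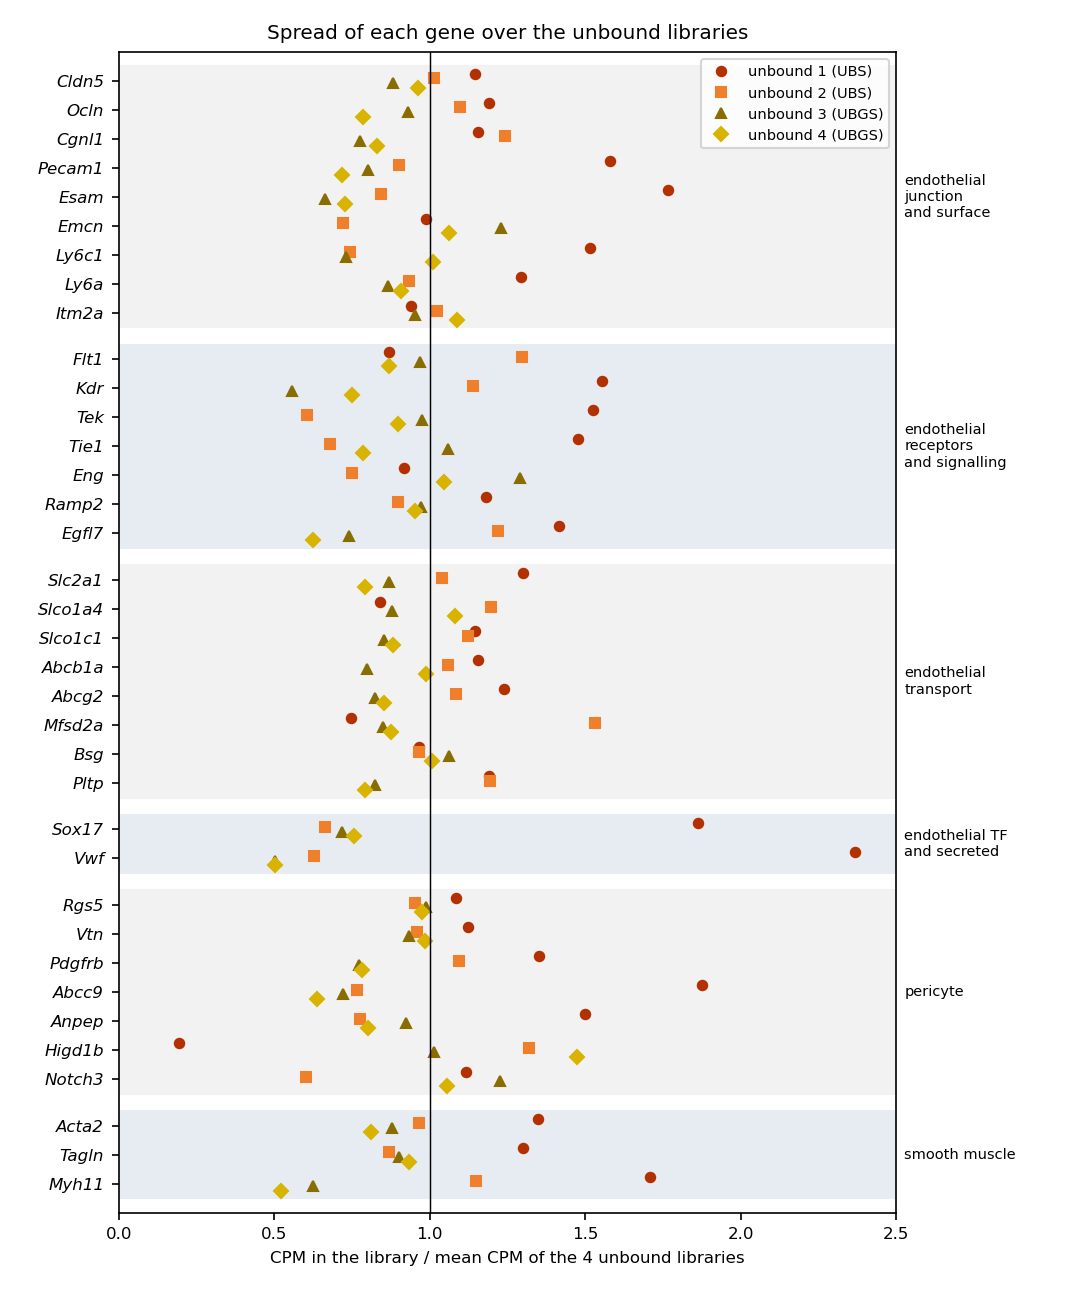
CPM of each gene in the 4 unbound libraries divided by their mean. Unbound replicate 1 (UBS) lies to the right for most genes, as far as 2.37 for Vwf, and the UBGS replicates 3 and 4 lie close together.

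Other genes of the same vessel pathways, 182 of 183 of them tested, were lower in 107 cases, higher in 25 and past no threshold in 50, with a median log2 fold change of -1.23. Over all genes tested 30.7% were lower and 31% higher, against which each count below is to be read, and the counts of several lists lie near those shares. How many genes of these lists passed the filter through the unbound libraries alone was not computed. Such genes had to be lower, so the 30.7% is not a matched share. In each list the gene with the largest fall and the gene with the largest rise among those of at least 1 CPM is named here. For VEGF and angiopoietin signalling 6 of 11 genes were lower and 2 higher. Cdh5 (VE-cadherin, the adherens junction protein specific to endothelium) had 0.376, 0.112 and 0.272 CPM in bound libraries and 2.82, 3.06, 2.98 and 2.86 CPM in unbound libraries (log2 fold change -3.53, SE 0.40, edgeR adjusted p = 2e-05). Pgf (placental growth factor, a ligand of Flt1) went the other way, with 5.37, 5.14 and 6.71 CPM against 0.411, 1.45, 1.67 and 1.28 CPM (log2 fold change 2.24, SE 0.36, edgeR adjusted p = 0.00027). In both genes the groups were apart, in opposite directions.

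In the Notch list 6 of 12 genes were lower and 0 higher in edgeR, as in DESeq2 and at an unadjusted p under 0.05, but 1 was higher with the exon length offset and 3 with library totals. Heyl, a Notch target of mural cells, had 0.103, 0 and 0.385 CPM in bound libraries and 4.82, 5.51, 5.03 and 4.76 CPM in unbound libraries (log2 fold change -5.06, SE 0.67, edgeR adjusted p = 6e-05). Among genes of Wnt signalling at the barrier 10 of 15 were lower and 1 higher (2 without bound replicate 1). Lef1, a nuclear partner of beta-catenin, was lower (log2 fold change -3.97, SE 0.40, edgeR adjusted p = 7.3e-06). The gene that was higher, Wnt7a, a ligand that neural cells send to brain endothelium, had 20.2, 15.3 and 25.4 CPM against 3.44, 5.75, 3.52 and 3.63 CPM (log2 fold change 2.31, SE 0.22, edgeR adjusted p = 4.9e-06). Its relative Wnt7b was lower, with 2.31, 0.896 and 2.22 CPM against 11.9, 16.2, 15.5 and 14.7 CPM (log2 fold change -3.02, SE 0.29, edgeR adjusted p = 5.6e-06; named after its values were seen). These related ligands lay on opposite sides of zero.

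Endothelial transcription factors were lower in 9 of 16 cases and higher in 3, and PDGF and TGF-beta genes lower in 7 of 15 and higher in 2. Neither count was firm. The 3 higher factors were 1 without bound replicate 2, and the 7 lower PDGF and TGF-beta genes were 4 without bound replicate 1 or 2 or unbound replicate 1 or 2, 3 without unbound replicate 3, and 2 with library totals, where 6 were higher. Foxc1, a forkhead factor of mural and endothelial cells, had 0, 0 and 0.204 CPM in bound libraries and 1.64, 2.62, 2.77 and 2.12 CPM in unbound libraries (log2 fold change -5.23, SE 0.90, edgeR adjusted p = 0.00043), and the growth factor Tgfb2 was lower too (log2 fold change -1.85, SE 0.13, edgeR adjusted p = 4e-07). Lyl1, a factor of blood and endothelium, had 0.821, 5.12 and 1.79 CPM against 0.264, 0.958, 0.423 and 0.617 CPM (log2 fold change 2.18, SE 0.60, edgeR adjusted p = 0.0087). Tgfb1, a growth factor also made by microglia, had 1.01, 4.80 and 1.47 CPM against 0.587, 1.05, 0.470 and 0.765 CPM (log2 fold change 1.75, SE 0.53, edgeR adjusted p = 0.013). Both were highest in bound replicate 2, where the sum over microglia markers was also highest, and the part of microglia RNA in them was not tested. Without that library neither passed, with a log2 fold change of 1.19 for Lyl1 (edgeR adjusted p = 0.087) and 0.78 for Tgfb1 (edgeR adjusted p = 0.15).

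Further barrier transporters were lower in 11 of 18 cases and higher in 2 (5 with library totals), and further junction genes lower in 7 of 13 and higher in 4. Abcc4, an efflux pump, fell the most among the transporters (log2 fold change -3.90, SE 0.49, edgeR adjusted p = 4e-05), and Slco2b1, an organic anion carrier, was higher with 7.58, 25.0 and 15.2 CPM in bound libraries against 5.55, 5.44, 4.13 and 4.47 CPM in unbound libraries (log2 fold change 1.70, SE 0.32, edgeR adjusted p = 0.00074). Cd34, a sialomucin of endothelium and blood progenitors, was lower (log2 fold change -1.81, SE 0.34, edgeR adjusted p = 0.00082), and F11r (JAM-A, a junction protein also found on leukocytes) was higher with 5.0, 9.79 and 3.79 CPM against 2.35, 2.29, 1.93 and 1.75 CPM (log2 fold change 1.58, SE 0.31, edgeR adjusted p = 0.001). Slco2b1 and F11r were again highest in bound replicate 2.

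Of 6 caveola and vesicle genes 3 were lower and 2 higher. Cav1, the coat protein of caveolae, had 0.479, 0.336 and 0.0453 CPM in bound libraries and 6.75, 4.16, 7.26 and 7.28 CPM in unbound libraries (log2 fold change -4.40, SE 0.49, edgeR adjusted p = 1.6e-05). Plvap, a protein of the diaphragms of leaky vessels that barrier endothelium is known to lack, had 6.31, 5.54 and 7.69 CPM against 2.44, 4.11, 2.79 and 2.54 CPM (log2 fold change 1.13, SE 0.23, edgeR adjusted p = 0.0013). Basement membrane genes were lower in 11 of 17 cases and higher in 0 (0 also in DESeq2 and at an unadjusted p under 0.05, 2 with the exon length offset or library totals), with Lama2, a laminin chain of the vessel wall, furthest down (log2 fold change -3.04, SE 0.33, edgeR adjusted p = 1.5e-05). Of 15 genes that mark arterial or venous segments 9 were lower and 2 higher, among them Vcam1, a leukocyte adhesion molecule, lower (log2 fold change -4.93, SE 0.54, edgeR adjusted p = 1.4e-05), and Nr2f2, a transcription factor of veins and of some interneurons, higher (log2 fold change 0.89, SE 0.13, edgeR adjusted p = 0.00011).

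Further pericyte genes were lower in 10 of 13 cases and higher in 1, and further smooth muscle genes lower in 11 of 16 and higher in 2. Slc6a20a, an imino acid carrier, had 0.376, 0 and 0.249 CPM in bound libraries and 12.4, 11.7, 12.3 and 13.1 CPM in unbound libraries (log2 fold change -5.91, SE 0.53, edgeR adjusted p = 3e-06), and meningeal and choroid plexus cells also express it. S1pr3, a sphingosine 1-phosphate receptor, was higher (log2 fold change 1.0, SE 0.20, edgeR adjusted p = 0.0011). Myl9, the regulatory light chain of smooth muscle myosin, had 0.941, 0.784 and 0.816 CPM against 14, 8.64, 9.28 and 8.07 CPM (log2 fold change -3.55, SE 0.25, edgeR adjusted p = 4.6e-07), close to the fall of Acta2. Mustn1, a small muscle protein, was higher (log2 fold change 1.04, SE 0.38, edgeR adjusted p = 0.034), a call lost without bound replicate 1 or 3 or unbound replicate 2, 3 or 4. In vasoactive signalling 7 of 15 genes were lower and 4 higher, with S1pr1, a receptor shared with astrocytes, at -3.40 (SE 0.32, edgeR adjusted p = 4.3e-06) and Ptgs1, a prostaglandin-forming enzyme also found in microglia, at 1.60 (SE 0.18, edgeR adjusted p = 1.6e-05).

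Markers of other cells spanned a wider range than the vessel classes. Meningeal and perivascular fibroblast genes had a median log2 fold change of -4.41, excitatory neuron genes -3.86, astrocyte genes -3.12, oligodendrocyte genes -1.97, microglia genes 1.86 and GABAergic neuron genes 3.73. The smooth muscle (-2.92) and pericyte (-3.25) medians lay near that of astrocytes, and the endothelial receptor median (-0.74) lay nearest to zero of the vessel classes. These medians describe lists of unequal size, and no difference between lists was tested.

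**Figure D5:**
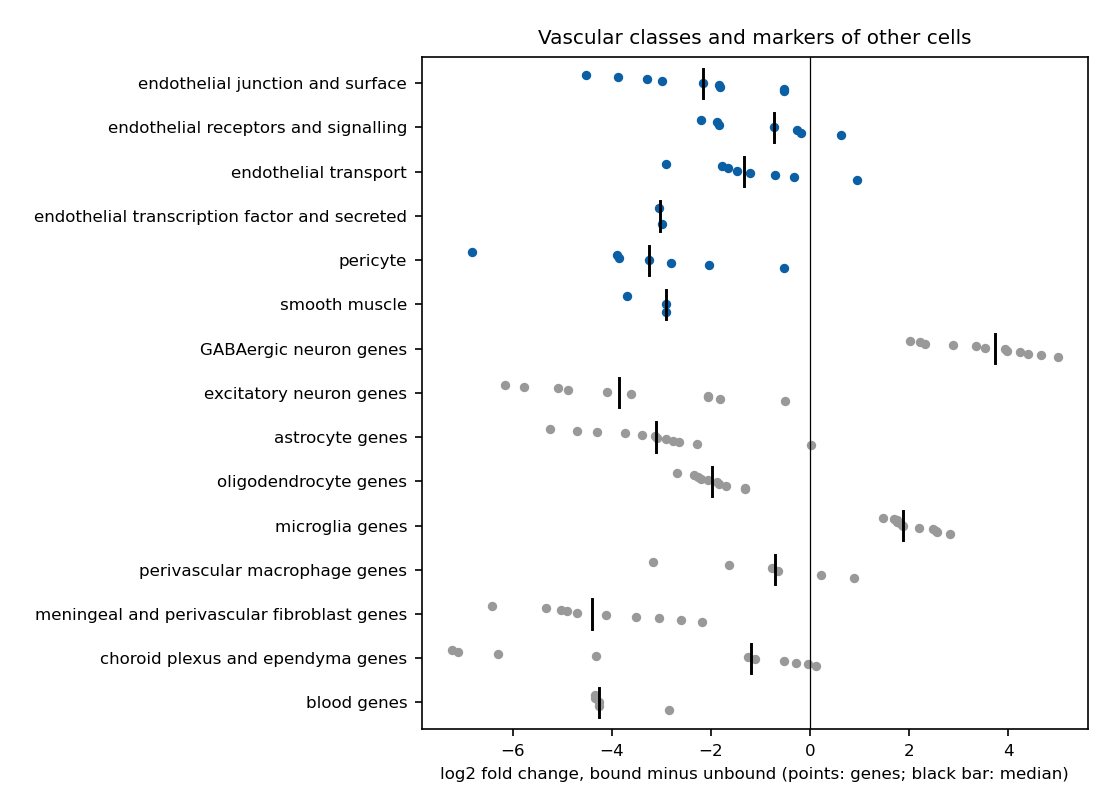
Log2 fold change (bound minus unbound) of single genes (points) and list medians (black bars) for the 6 vessel classes (blue) and 9 lists of other cell markers (grey). All vessel class medians lie left of zero, and the medians right of zero are those of the GABAergic neuron and microglia lists.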

How the data were processed

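Hippocampal RNA from 3 bound and 4 unbound TRAP libraries was analysed. The authors deposited raw counts of reads per gene, and per the submitters' processing notes STAR 2.5.3a, HTSeq and mm10 were used. The sources used here do not give the strand setting, kit, annotation release or multi-mapping treatment. Gene symbols came from GENCODE M21 (37693 of 39017 IDs matched). The rest is computed here. Genes with about 10 counts in 3 libraries (edgeR filterByExpr) were tested with edgeR 4.0.16 (quasi-likelihood, TMM, Benjamini-Hochberg over all tested genes, threshold 0.05) in R 4.3.3. DESeq2 1.42.0, other scalings, no filter, a 1.5-fold minimum, each unbound title series alone and each library left out were alternatives. Shared 50-base words were counted between GENCODE transcripts. The test was checked on simulated counts. Fold changes are bound over unbound and SDs are over libraries.

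The 36 genes and the lists of other genes were chosen with earlier results of these data known. All 36 are named or counted in their class, and from each pathway list the strongest called gene in either direction is named, provided it averaged 1 CPM or more over the libraries.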

Additional observations from a re-analysis of the deposited data

Results flagged for a closer look

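Among 71 values examined across the 4 unbound libraries, 12 had 1 library far from the other 3 by Dixon's criterion, which chance meets in about 1 of 20 groups. In unbound replicate 1, Esam stood at 2.94 CPM (others 1.1 to 1.4), Ly6a at 2.5 CPM, Sox17 at 0.852 CPM, Vwf at 12 CPM, Abcc9 at 5.37 CPM and Tagln at 4.58 CPM, each above the others. In unbound replicate 2, Mfsd2a stood at 8.6 CPM, Wnt7a at 5.75 CPM, Nr2f2 at 37.2 CPM and Ptgs1 at 7.99 CPM, each above the others, and Cav1 at 4.16 CPM, below them. In unbound replicate 3, S1pr3 stood at 4.70 CPM, above the others. The bound group of 3 was too small for this criterion.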

How the results depend on the processing

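No paired analysis was possible because the titles of bound and unbound libraries share no replicate numbers. The count of genes called lower, 26 of 36, was 17 against the UBGS libraries alone and 22 to 27 with 1 library left out, and the count called higher, 2, was 1 at a 1.5-fold minimum. Over all genes, 3608 were lower and 3246 higher at a 1.5-fold minimum, and 3704 lower and 9284 higher with library totals, which moved the median of all genes to a log2 fold change of 0.43. Of the 26 genes called lower, 16 kept direction and call in all 16 alternatives, and Higd1b did in the 12 where it passed the filter. Reversed values, none past the threshold, were Esam 0.016 and Egfl7 0.38 against UBGS alone, and Eng 0.15, Egfl7 0.25 and Slc2a1 0.10 with library totals. With 1 library left out Eng ranged between -0.72 and 0.024 and Egfl7 between -0.35 and 0.044. Between UBS and UBGS libraries, 44 genes were called, against 286 with DESeq2, 22 with library totals, 104 with no filter and 16 to 7389 with 1 library left out. Of the 36 genes 0 were called there, against 2 with DESeq2 and 0 to 21 with 1 library left out. There a lone library was assumed to vary like the other pair. The cause of these shifts was not tested. Low counts limit Ly6c1, Sox17, Anpep, Higd1b, Tie1 and Cldn5 in bound libraries.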
